A study of Mus musculus with 15 samples.

Results

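The genes described here encode the structural subunits of respiratory complexes II, III, IV and V, together with cytochrome c, the small carrier that moves electrons from complex III to complex IV. They were chosen by name, from membership of the complexes, and number 48 of the 47643 gene symbols in the deposited table. Of the 48 genes, 4 belong to complex II, 10 to complex III, 16 to complex IV and 17 to complex V, and the remaining 1 is Cycs, the cytochrome c gene of somatic tissues. The nuclear genome carries 42 of them and the mitochondrial genome carries 6. All 48 passed the filter on low values, and no member was below 34.7 TPM (a transcript level per unit of length, scaled to a fixed sum per library) in any library.

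The tissue was the tibialis anterior, a fast hindlimb muscle, of 15 female C57BL/6J mice whose age is given as 7 weeks, with 1 RNA library per mouse. Muscle was taken 49 days after a melanoma xenograft that induces cachexia (body wasting) or a mock injection, and each mouse received either the ACE inhibitor lisinopril or mock treatment. The control group (mock injection, mock treatment) held 4 mice, the lisinopril group (mock injection, lisinopril) 3, the melanoma group (xenograft, mock treatment) 4 and the melanoma plus lisinopril group 4, so that 8 mice were tumour-bearing and 7 tumour-free. The age label and this interval cannot both describe the mouse at collection, and the labels do not say when the age was taken. The extraction protocol in the labels refers to 3 weeks after injection of LLC cells, a different tumour model, so the interval of 49 days rests on the series' design text alone. Neither the melanoma line nor the dose of the drug is stated in the labels. Whole muscle was measured, so fewer cells of a type and less RNA per cell cannot be told apart.

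Complex II takes electrons from succinate, complex III passes electrons from ubiquinol to cytochrome c, and complex IV hands them to oxygen. Complexes III and IV pump protons, and complex V, the ATP synthase, uses the returning protons to make ATP. Every complex but II is built from subunits of both genomes, and several complex IV subunits come in a muscle and heart form and a form used more widely.

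The nuclear members lie on 17 chromosomes of the mouse genome. RefSeq promoter windows (GRCm38.p6, 250 bases before to 50 after the start) were matched for 32 members, 9 of them among the 11 members that fell with the tumour. The NRF1 motif (GCGCANGCG, both strands; NRF1 is a regulator of nuclear genes for mitochondrial proteins) occurred in 13 of these 32 windows, or 40.6%, and in 7.03% of the windows of all 27025 genes in the table. The full ERR element (TCAAGGTCA, the site of estrogen-related receptors) occurred in 2 of the 32, in Sdhd and Atp5g3, against 0.466% of all genes. Its shorter core AAGGTCA, which the full element contains, occurred in 5 of the 32 against 5.38%. The GABP motif CCGGAAGT occurred in 4 against 4.31%, the YY1 motif AAGATGGC in 2 against 3.19%, and the MEF2 motif in 0 against 3.70%. Among the 9 windows of members that fell, 4 held the NRF1 motif. These matches describe letters in a window and are not bound sites.

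The 150 bases upstream of the start are printed for 4 members that fell and hold a motif, for Atp5g2, the gene of the same subunit as Atp5g3 that was higher in most tumour-bearing libraries, and for Cox7a1, which fell by the most and held none of the motifs. Each is written 5′ to 3′ on the gene's own strand, with the motif matches in capitals: NRF1 in Cycs, Sdhd and Atp5g2 (a pair of overlapping matches in Atp5g2), NRF1 and then GABP in Atp5h, and ERR in Atp5g3.
Cycs, chr6:50566570-50566719, minus strand: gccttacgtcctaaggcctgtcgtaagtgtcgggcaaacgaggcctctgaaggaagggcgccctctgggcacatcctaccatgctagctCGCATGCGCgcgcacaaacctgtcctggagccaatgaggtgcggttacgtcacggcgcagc
Sdhd, chr9:50603850-50603999, minus strand: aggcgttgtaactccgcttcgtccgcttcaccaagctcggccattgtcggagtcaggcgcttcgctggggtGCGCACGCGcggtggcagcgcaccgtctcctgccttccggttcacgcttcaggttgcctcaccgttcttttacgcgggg
Atp5h, chr11:115419920-115420069, minus strand: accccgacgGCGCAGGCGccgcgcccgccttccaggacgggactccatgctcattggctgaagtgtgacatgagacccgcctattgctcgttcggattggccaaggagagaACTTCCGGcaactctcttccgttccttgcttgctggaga
Atp5g3, chr2:73911327-73911476, minus strand: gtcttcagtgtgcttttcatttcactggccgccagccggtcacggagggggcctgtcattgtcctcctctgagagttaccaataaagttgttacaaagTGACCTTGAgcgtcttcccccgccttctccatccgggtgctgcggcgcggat
Atp5g2, chr15:102671048-102671197, minus strand: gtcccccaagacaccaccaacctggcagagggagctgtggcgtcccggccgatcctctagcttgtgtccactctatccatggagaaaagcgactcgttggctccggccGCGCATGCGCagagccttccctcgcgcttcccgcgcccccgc
Cox7a1, chr7:30184021-30184170, plus strand: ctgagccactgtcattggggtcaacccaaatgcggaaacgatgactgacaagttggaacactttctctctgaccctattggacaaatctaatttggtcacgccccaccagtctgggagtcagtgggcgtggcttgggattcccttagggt
The match began 61 bases before the start in Cycs, 79 in Sdhd, 141 (NRF1) and 39 (GABP) in Atp5h, and 52 in Atp5g3. The ERR element of Sdhd and an NRF1 match of Atp5g3 lie in the rest of the promoter window, outside the bases printed.

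The summed level of 6 fast and general muscle fibre markers was between 66545 and 130591 TPM in every library, and that of 4 heart markers was 0.333 to 6.70 TPM without and 0.751 to 15.3 TPM with a tumour. The highest heart marker was Myh6, at 14.5 TPM in melanoma plus lisinopril 4, followed by Tnni3 at 5.65 TPM in control 2, while Nppa reached 1.32 TPM and Ryr2 0.29 TPM. Mitochondrial transcripts made up 28.5% to 52.8% of all TPM, so the remaining genes shared a variable rest. For this reason nuclear members are also given on TPM rescaled without the mitochondrial transcripts. Control replicate 2 and melanoma replicate 2 stood apart: their mean correlation with the libraries of their own group was 0.937 and 0.938, against at least 0.965 for the others, and control 2 held 23878 TPM of haemoglobin transcripts where no other library exceeded 4197. The counts of called members are given with and without both libraries, a choice made with earlier results of these data known.

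In tumour-bearing muscle 11 of the 48 members fell and 1, Cox6a2, rose, in the tumour effect averaged over mice with and without lisinopril (limma, adjusted over all 11923 genes tested, threshold 0.05). The share of members called lower was 22.9%, while 3.45% of all genes tested were called lower, 14.5% higher and 18% in either direction. The estimate was below 0 for 43 of 48 members, with a median of -0.19 on the log2(TPM + 1) scale, where the median of all genes was 0.17. The members that fell were Sdhb and Sdhd of complex II, Uqcrc2, Uqcrfs1 and Cyc1 of complex III, Cycs, Cox7a1 of complex IV, and Atp5g3, Atp5h, Atp5j and Atp5j2 of complex V. No mitochondrially encoded member passed the test. Without control 2 and melanoma 2, 16 members fell and 1 rose, where 5.12% of all genes were called lower and 26.1% higher.

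**Figure D1:**
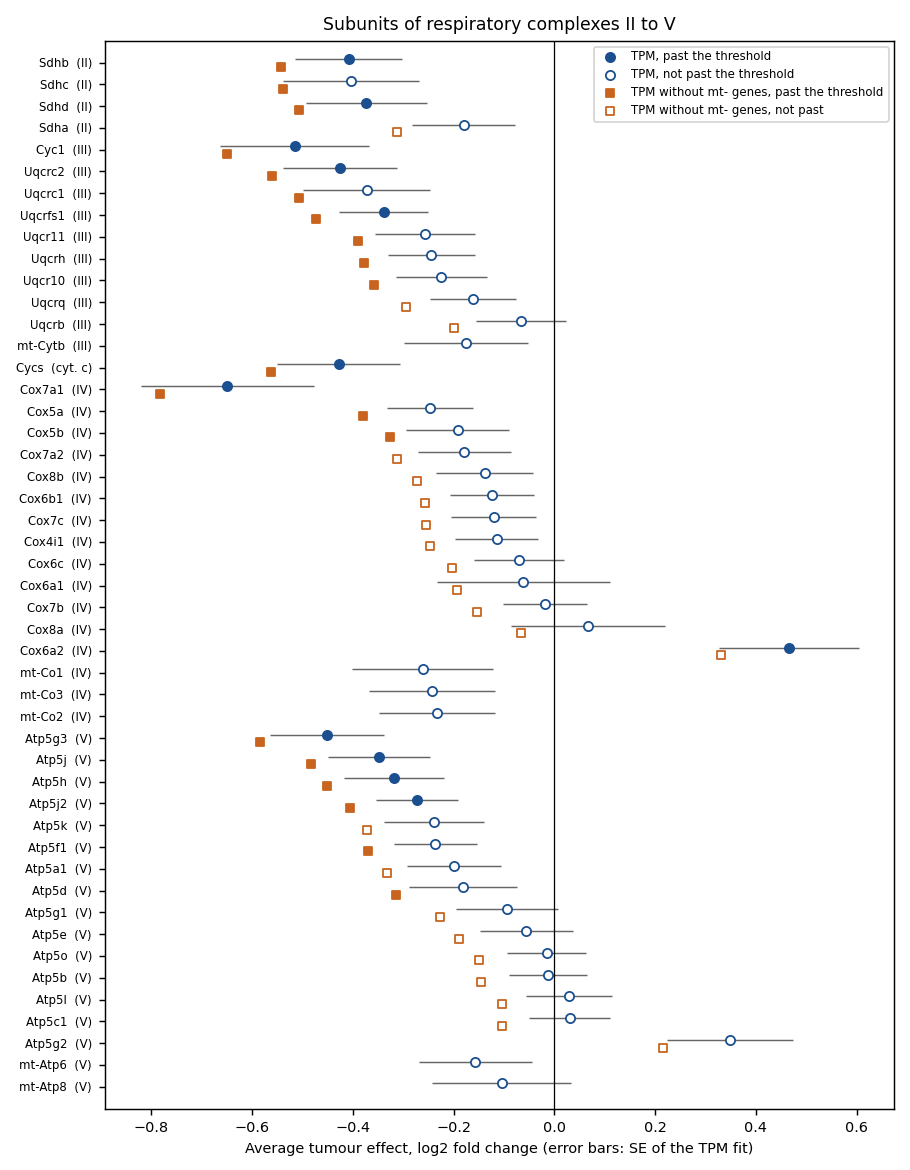
Average tumour effect of each of the 48 members as a log2 fold change (x axis, error bars are the SE of the TPM fit), with the complex in brackets on the y axis. Circles are the TPM fit, filled where the gene passed the threshold, and squares are the fit on TPM without mitochondrial transcripts; the estimates run from -0.65 for Cox7a1 to 0.46 for Cox6a2, and most lie below 0.

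On TPM rescaled without mitochondrial transcripts 20 of the 42 nuclear members fell and 0 rose, where 6.75% of all genes were called lower, 10% higher and 16.7% in either direction. The median of the 42 was -0.32 and that of all genes 0.06. After scaling each library by the median ratio of its genes to their mean over libraries, 23 of 48 members fell and 0 rose, with a member median of -0.40 and an all-gene median of -0.0039, and 10.6% of all genes were called lower, 9.28% higher and 19.9% in either direction. The same 11 genes were among those called lower on both scales. The 9 further nuclear members that passed without mitochondrial transcripts were Sdhc, Uqcrc1, Uqcrh, Uqcr10, Uqcr11, Cox5a, Cox5b, Atp5d and Atp5f1. Without control 2 and melanoma 2, 23 members fell on TPM without mitochondrial transcripts and 27 after median-ratio scaling, with 0 higher on either scale. The shares of all genes also rose there, to 9.81% and 15.9% called lower and 19.8% and 15.1% called higher, in the same order.

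Complex II, the only complex here with no mitochondrially encoded subunit, had the lowest median of the complexes at -0.39, and 2 of its 4 members fell on TPM (3 without control 2 and melanoma 2). Sdhb, the iron-sulphur subunit, stood at 440.3, 448, 504 and 440.3 TPM in the controls and at 420.1, 494 and 428 TPM with lisinopril. It stood at 298, 309.7, 354 and 350.1 TPM with melanoma and at 466, 350.0, 338 and 284 TPM with melanoma plus lisinopril. All but 1 of the 8 tumour-bearing libraries were below every tumour-free library; melanoma plus lisinopril replicate 1 overlapped. The log2 fold change was -0.41 ± 0.106 (SE, limma adjusted p = 0.0224), a level 0.754 times that of tumour-free muscle.

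Sdhd, a haem-binding membrane anchor, ranged from 419 to 617 TPM (median 580.4) in tumour-free and from 328 to 491 TPM (median 438) in tumour-bearing muscle. The groups overlapped because control 2, at 419 TPM, was far below the other tumour-free libraries, and the change was -0.37 ± 0.120 (adjusted p = 0.0447). Sdhc, the other anchor, showed a similar estimate of -0.40 ± 0.135 and did not pass on TPM (adjusted p = 0.0505), but did without mitochondrial transcripts (-0.54, adjusted p = 0.0467). The flavoprotein Sdha, which holds the succinate site, was 393 to 464 TPM against 275 to 462 TPM, with an estimate of -0.18 ± 0.102 (adjusted p = 0.208).

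In complex III 3 of 10 members fell on TPM and 7 of its 9 nuclear members fell without mitochondrial transcripts; without control 2 and melanoma 2 these counts were 5 and 7. Uqcrc2, a core subunit that has no redox centre, stood at 507, 434, 555 and 502 TPM in the controls and at 506, 503 and 486 TPM with lisinopril. With melanoma it stood at 367, 260.1, 433 and 367 TPM, and with melanoma plus lisinopril at 419, 427, 399 and 327 TPM. All 8 tumour-bearing libraries were below all 7 tumour-free libraries, although melanoma 3 at 433 TPM and control 2 at 434 TPM nearly met. The change was -0.43 ± 0.113 (adjusted p = 0.0238).

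Cyc1, cytochrome c1, which gives electrons to cytochrome c, stood at 883, 698, 862 and 849 TPM in the controls and at 797, 853 and 778 TPM with lisinopril. With melanoma it was at 629, 321, 708 and 570.2 TPM, and with melanoma plus lisinopril at 664, 649, 609 and 514 TPM. All but 1 of the tumour-bearing libraries lay below the tumour-free range, and melanoma 2 was lowest. The change was -0.52 ± 0.148 (adjusted p = 0.0309). Uqcrfs1, the Rieske iron-sulphur protein, was 646 to 797 TPM (median 757) against 533 to 671 TPM (median 574), with 6 of 8 tumour-bearing libraries below every tumour-free library and a change of -0.34 ± 0.0885 (adjusted p = 0.0226).

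The other core subunit, Uqcrc1, had an estimate of -0.37 ± 0.126 (adjusted p = 0.0525) on TPM and fell without mitochondrial transcripts (-0.51, adjusted p = 0.0381). The small subunits Uqcrh, Uqcr10 and Uqcr11 had TPM estimates of -0.24, -0.22 and -0.26, which did not pass, and fell by 0.38, 0.36 and 0.39 without mitochondrial transcripts. Uqcrb and Uqcrq, the remaining small subunits, passed on neither scale, with TPM estimates of -0.07 ± 0.0891 and -0.16 ± 0.0852. The range of Uqcrb, 578 to 803 TPM in tumour-free muscle, enclosed its tumour-bearing range of 619 to 736 TPM.

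Cycs, the electron carrier between complexes III and IV, was one of the least abundant members and fell by 0.43 ± 0.122 on the log2 scale (adjusted p = 0.0307). Its levels were 163, 111, 178 and 157 TPM in the controls, 171, 170.1 and 143 TPM with lisinopril, 116, 83.5, 124 and 116 TPM with melanoma, and 119.9, 141, 121 and 109.6 TPM with melanoma plus lisinopril. Only 2 of the 8 tumour-bearing libraries were below every tumour-free library, because control 2, at 111 TPM, was lower than most of them.

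**Figure D2:**
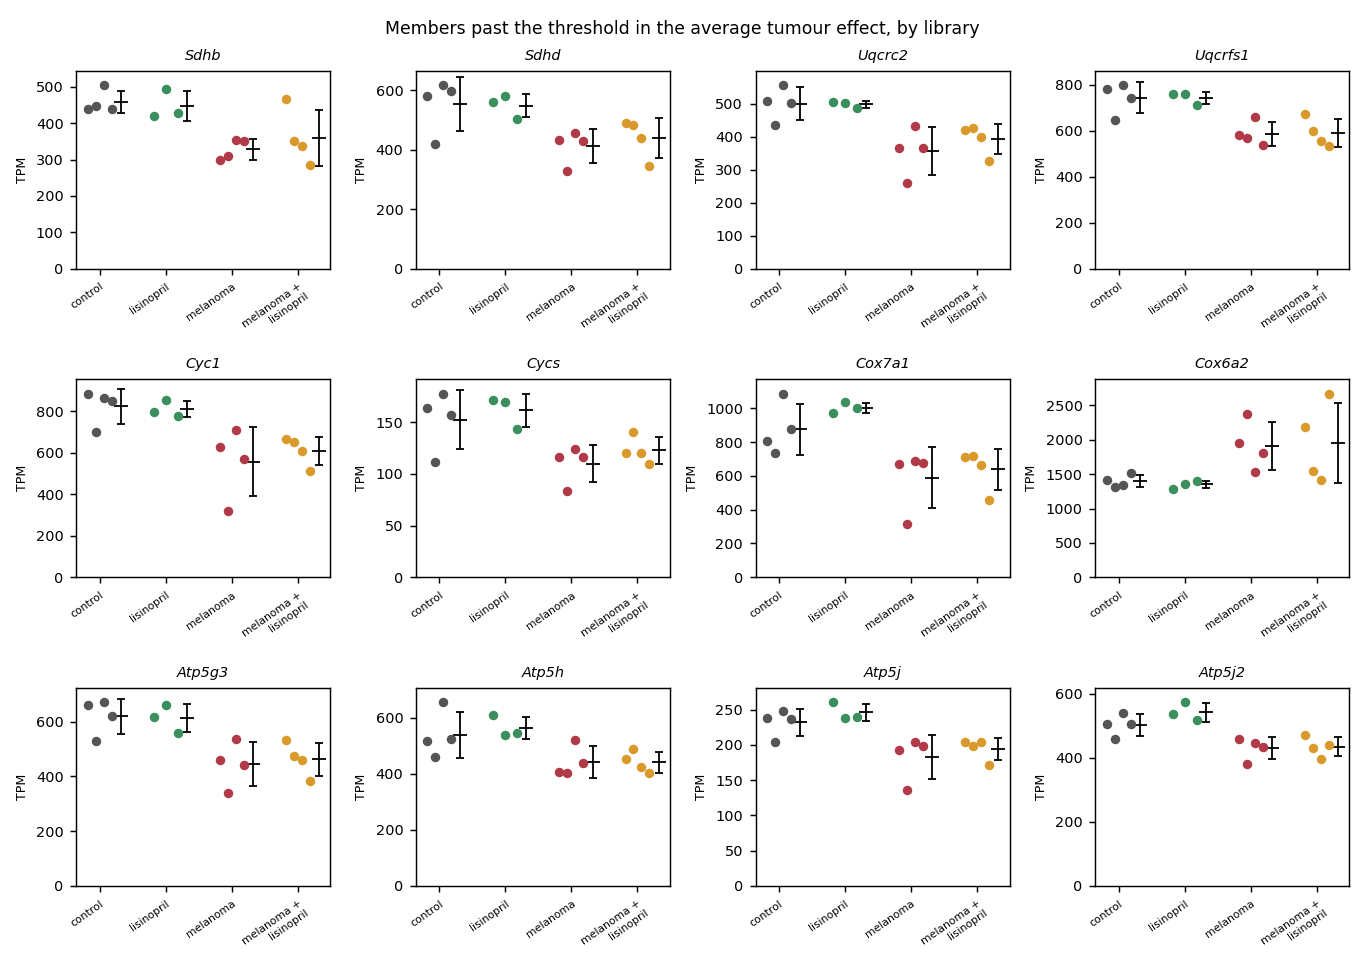
TPM of the 12 members past the threshold in the average tumour effect, 1 panel per gene; each point is 1 library, grouped by treatment, and bars are the group mean and SD. All 8 tumour-bearing libraries lie below all tumour-free ones for Uqcrc2, Cox7a1 and Atp5j, and Cox6a2 is the panel in which tumour-bearing libraries are higher.

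In complex IV 1 of 16 members fell on TPM (Cox7a1) and 1 rose (Cox6a2), with a median of -0.13. Without control 2 and melanoma 2, 2 fell and 1 rose. The changed members are both muscle and heart forms of a subunit that has a second, more widely used gene. Cox7a1, the muscle form of subunit VIIa, stood at 806, 733, 1086 and 875 TPM in the controls and at 974, 1035 and 1000.1 TPM with lisinopril. It stood at 669, 317, 686 and 679 TPM with melanoma and at 712, 719.6, 663 and 458 TPM with melanoma plus lisinopril. Every tumour-bearing library was below every tumour-free library, with melanoma 2 and melanoma plus lisinopril 4 lowest. The change of -0.65 ± 0.172 (adjusted p = 0.0238), a level 0.637 times that of tumour-free muscle, was the largest decrease of the 48 members, and it was -0.78 (adjusted p = 0.0258) without mitochondrial transcripts. Cox7a1 is also expressed in brown fat and heart. Fat cell markers were detected beside it: the 6 of them summed to 255 to 446 TPM without and 274 to 511 TPM with a tumour, nearly all of it Fabp4 (239 to 492 TPM), which endothelial cells also express. Cfd reached 42.5 TPM, Adipoq 4.32 TPM and Cidea 3.38 TPM, while Ucp1, the defining gene of brown fat, and Plin1 stayed at or under 0.37 and 0.55 TPM. None of the 4 that could be tested passed, and the part of fat cells or of heart muscle in the Cox7a1 level was not tested.

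Cox6a2, the muscle form of subunit VIa, stood at 1411, 1317, 1338 and 1511 TPM in the controls and at 1288, 1361 and 1401 TPM with lisinopril. It stood at 1954, 2371, 1532 and 1808 TPM with melanoma and at 2188, 1543, 1421 and 2669 TPM with melanoma plus lisinopril. All but 1 of the tumour-bearing libraries were above the tumour-free range, and the libraries with the highest values, melanoma 2 and melanoma plus lisinopril 4, were those with the lowest Cox7a1. The rise was 0.46 ± 0.139 (adjusted p = 0.0354), a level 1.38 times that of tumour-free muscle. It did not pass on the other scales, at 0.33 (adjusted p = 0.0762) without mitochondrial transcripts and 0.25 (adjusted p = 0.182) after median-ratio scaling.

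The remaining nuclear members of complex IV did not pass on TPM. Cox5a and Cox5b, subunits on the matrix side of the enzyme, had estimates of -0.25 ± 0.0848 (adjusted p = 0.0543) and -0.19 ± 0.102 (adjusted p = 0.179), and fell by 0.38 and 0.33 without mitochondrial transcripts. Cox4i1, whose product binds adenine nucleotides, had an estimate of -0.11 ± 0.0822, and Cox6b1, on the side of cytochrome c, one of -0.12 ± 0.0833. Cox6c, Cox7b and Cox7c had estimates of -0.07, -0.02 and -0.12. The muscle form Cox8b ranged from 1149.7 to 1431 TPM without and from 943 to 1339 TPM with a tumour, with an estimate of -0.14 ± 0.0963.

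The more widely used partners were less abundant in this muscle and did not pass the test. Cox6a1 was the lowest of all members, at 34.7 to 94.6 TPM (estimate -0.06 ± 0.172); its highest value was in control 2, where haemoglobin transcripts were also highest. Cox7a2 was 411 to 489 TPM against 324 to 456 TPM (-0.18 ± 0.0926), and Cox8a had an estimate of 0.07 ± 0.152, which turned to -0.066 without mitochondrial transcripts and -0.14 after median-ratio scaling.

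The ratio of 2 genes in the same library does not depend on how that library was scaled, and 5 such ratios were compared by an exact permutation test, two-sided, over every relabelling of the libraries within the drug arms and adjusted over the 5. The Cox7a1 to Cox7a2 ratio was 1.96, 1.78, 2.22 and 2.02 in the controls and 2.22, 2.16 and 2.40 with lisinopril. It was 1.86, 0.768, 1.76 and 1.62 with melanoma and 1.83, 1.95, 2.05 and 1.01 with melanoma plus lisinopril, so that 4 of 8 tumour-bearing libraries were below the tumour-free range. Folds of ratios are taken from mean log2 ratios, with the difference averaged over the drug arms. On this measure the ratio was 0.721 times that of tumour-free muscle (exact permutation p = 0.00612, adjusted p = 0.0102). The adjusted p was 0.0651, 0.0603 and 0.0679 without lisinopril 1, 2 and 3 in turn.

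The Cox6a2 to Cox6a1 ratio ranged from 13.9 to 40.4 in tumour-free and from 29.1 to 69.3 in tumour-bearing libraries, 5 of which were above the tumour-free range. From mean log2 ratios it was 1.44 times as high with the tumour, which did not pass (exact permutation p = 0.0437, adjusted p = 0.0546). The Cox8b to Cox8a ratio was 9.36 to 20.9 against 7.38 to 17.96, with only melanoma 2 outside the tumour-free range (exact permutation p = 0.294, adjusted p = 0.294). How reads shared by close copies were assigned is not stated in the labels, so the level of each gene in such a pair carries that uncertainty.

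**Figure D3:**
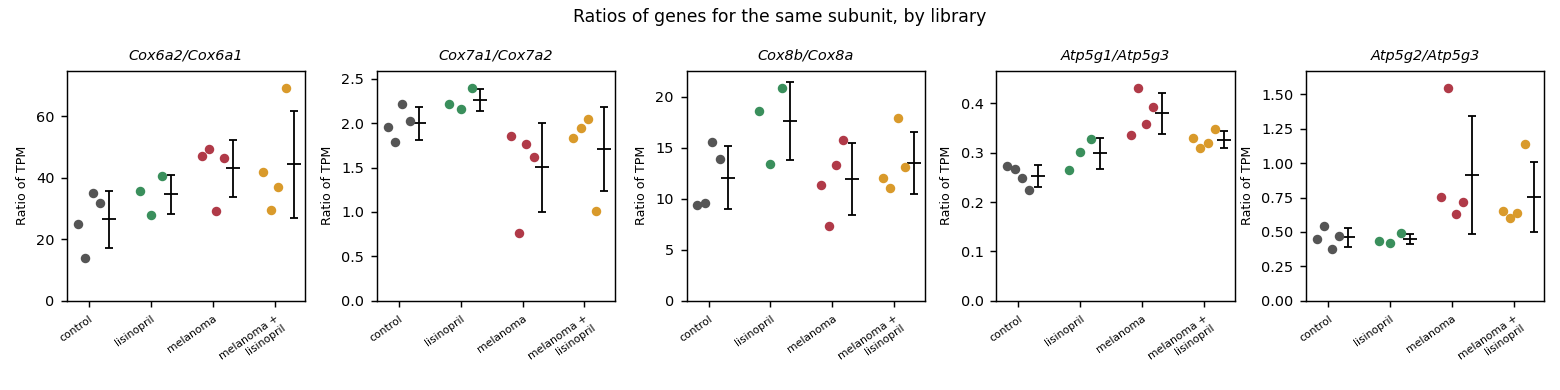
Ratio of TPM of the 5 pairs of genes for the same subunit, 1 panel per pair; each point is 1 library, grouped by treatment, and bars are the group mean and SD. All 8 tumour-bearing libraries lie above all 7 tumour-free ones for Atp5g2 to Atp5g3, and the lowest Cox7a1 to Cox7a2 ratio, 0.768, is melanoma replicate 2.

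In complex V 4 of 17 members fell on TPM (5 without control 2 and melanoma 2), and the 4 belong to the membrane part or the peripheral stalk. Subunit c, which forms the rotating ring in the membrane, is encoded by Atp5g1, Atp5g2 and Atp5g3, whose mature proteins are the same. Atp5g3 was the most abundant of these, at 659, 529, 670.2 and 621 TPM in the controls and 616, 661 and 559 TPM with lisinopril. It stood at 461, 339.9, 537 and 439.7 TPM with melanoma and at 533, 473, 458 and 384 TPM with melanoma plus lisinopril. In 6 of 8 tumour-bearing libraries it was below every tumour-free library, and the change was -0.45 ± 0.113 (adjusted p = 0.0187), a level 0.731 times that of tumour-free muscle.

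Atp5g2 differed in direction. Its levels were 294, 288, 254 and 294 TPM in the controls, 266, 278 and 276 TPM with lisinopril, 348, 527, 337 and 316 TPM with melanoma, and 346, 284, 292 and 437 TPM with melanoma plus lisinopril. In 6 of 8 tumour-bearing libraries it was above every tumour-free library, yet the estimate of 0.35 ± 0.126 did not pass (adjusted p = 0.0623), nor did the estimates of 0.22 and 0.14 on the other scales. Atp5g1 ranged from 139 to 200.04 TPM and from 134 to 193 TPM, with an estimate of -0.09 ± 0.102.

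The Atp5g2 to Atp5g3 ratio was 0.445, 0.545, 0.379 and 0.474 in the controls and 0.432, 0.421 and 0.493 with lisinopril. It was 0.754, 1.55, 0.628 and 0.719 with melanoma and 0.650, 0.601, 0.638 and 1.14 with melanoma plus lisinopril, with no overlap between tumour-bearing and tumour-free libraries. From mean log2 ratios it was 1.74 times as high with the tumour (exact permutation p = 4.08e-04, the smallest these relabellings can give, adjusted p = 0.00204). The Atp5g1 to Atp5g3 ratio was 0.224 to 0.328 against 0.309 to 0.432, with 6 of 8 tumour-bearing libraries above the tumour-free range. From mean log2 ratios it was 1.28 times as high with the tumour (exact permutation p = 0.00286, adjusted p = 0.00714).

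The peripheral stalk, which holds the catalytic head still, has 4 nuclear genes here, of which 2 fell on TPM. Atp5j, coupling factor 6, ranged from 204 to 260.2 TPM (median 238) in tumour-free and from 136 to 204 TPM (median 198) in tumour-bearing muscle, without overlap, and changed by -0.35 ± 0.102 (adjusted p = 0.0334). Atp5h, subunit d, ranged from 460.0 to 654 TPM and from 401 to 522 TPM and changed by -0.32 ± 0.0998 (adjusted p = 0.0417). Atp5f1, subunit b, had an estimate of -0.24 ± 0.0828 (adjusted p = 0.0579) on TPM and fell by 0.37 without mitochondrial transcripts (adjusted p = 0.036). Atp5o, the subunit that joins the stalk to the head and whose symbol has 2 entries in the gene annotation, had an estimate of -0.02 ± 0.0784.

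Of the small membrane subunits, Atp5j2 (subunit f) ranged from 457 to 573 TPM against 381 to 470.0 TPM and fell by 0.27 ± 0.0817 (adjusted p = 0.0361). Atp5k (subunit e) and Atp5l (subunit g), which take part in the pairing of ATP synthases, had estimates of -0.24 ± 0.0998 (adjusted p = 0.0957) and 0.03 ± 0.0855. None of the 5 genes of the catalytic head (Atp5a1 and Atp5b) and of the central stalk that turns within it passed on TPM. The estimates were -0.20 ± 0.0937 for Atp5a1, -0.01 ± 0.0775 for Atp5b, 0.03 ± 0.0802 for Atp5c1, -0.18 ± 0.107 for Atp5d and -0.06 ± 0.0924 for Atp5e, and Atp5d fell by 0.32 without mitochondrial transcripts (adjusted p = 0.0334). The estimates of Atp5c1 and Atp5l were -0.10 each without mitochondrial transcripts.

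On TPM 3 of the 48 members had no overlap between the 8 tumour-bearing and the 7 tumour-free libraries, all lower with the tumour (Uqcrc2, Cox7a1 and Atp5j), where 0.839% of all genes tested were lower without overlap. Higher without overlap were 0 members and 1.49% of all genes. Without mitochondrial transcripts 4 nuclear members were lower without overlap (Uqcrc2, Uqcr11, Cyc1 and Atp5g3), against 1.5% of all genes, and 0 were higher, against 1.36%. Uqcrc2 was without overlap on both scales. These counts depended on the libraries that stood apart: without control 2 and melanoma 2, 15 members were lower without overlap on TPM, against 2.03% of all genes, and 17 without mitochondrial transcripts, against 3.77%, and 0 were higher on either scale, against 9.57% and 8.01%. Of the 11 members that fell, 8 had their lowest value in melanoma 2 and 3 in melanoma plus lisinopril 4.

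The 6 mitochondrially encoded members were the most abundant of the 48, from mt-Co1 with a mean of 74313 TPM down to mt-Atp8 with 23333 TPM, while the highest nuclear member, Atp5l, had a mean of 1788 TPM. The estimates were below 0 for all 6 and none passed. They were -0.18 ± 0.123 for mt-Cytb, the cytochrome b of complex III, -0.26 ± 0.140, -0.23 ± 0.115 and -0.24 ± 0.125 for mt-Co1, mt-Co2 and mt-Co3, the catalytic core of complex IV, and -0.16 ± 0.112 and -0.10 ± 0.138 for mt-Atp6 and mt-Atp8 of the ATP synthase membrane part. mt-Co1 stood at 73552, 76063, 98390.4 and 72904 TPM in the controls and at 85242, 83153 and 77486 TPM with lisinopril. It stood at 55029.7, 62379, 73858 and 81665 TPM with melanoma and at 69821, 78972, 79497 and 46677 TPM with melanoma plus lisinopril. The groups overlapped, and all 6 genes were lowest in melanoma plus lisinopril 4. mt-Atp8 and mt-Atp6 overlap by 43 bases on the mitochondrial genome, and reads there cannot be assigned to 1 of the 2.

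Summed over genes, the nuclear members took 2.67% ± 0.149 of all TPM in controls (SD, n = 4), 2.74% ± 0.0878 in the lisinopril group (n = 3), 2.43% ± 0.108 in the melanoma group (n = 4) and 2.49% ± 0.192 in mice with both (n = 4). By complex, the nuclear sums were 1415 to 1820.4 TPM without and 1021 to 1596 TPM with a tumour for complex II, and 4876 to 5850.1 against 3797 to 5055 TPM for complex III. They were 8726 to 9747 against 7961 to 9810.3 TPM for complex IV, and 9574 to 11072 against 9085 to 10823 TPM for complex V, so the ranges overlapped in every complex. The mitochondrial members took 32.02% ± 4.29, 32.7% ± 1.89, 28.2% ± 4.02 and 28.1% ± 5.02 in the same order. Their ratio to the nuclear members was 11.996 ± 1.22, 11.9 ± 0.489, 11.6 ± 1.70 and 11.4 ± 2.44. The group means of the ratio thus differed by less than the spread among libraries, which ran from 8.22 to 13.8 in tumour-bearing muscle.

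**Figure D4:**
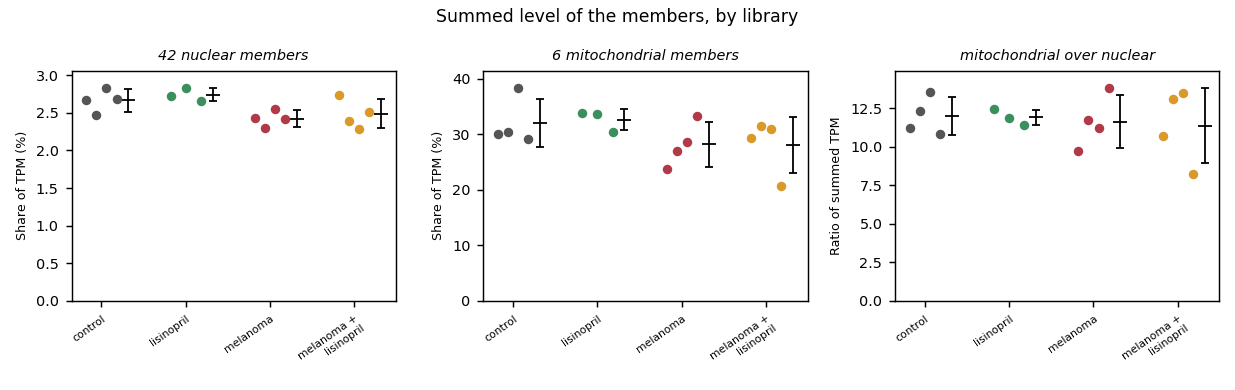
Share of all TPM taken by the 42 nuclear members (left) and the 6 mitochondrial members (middle), in percent, and the ratio of the 2 sums (right), with 1 point per library, grouped by treatment, and bars for the group mean and SD. Tumour-bearing libraries span 2.29% to 2.74% in the left panel and tumour-free ones 2.47% to 2.84%, and the lowest ratio, 8.22, is melanoma plus lisinopril 4.

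Taken separately, neither drug arm gave a called member. Melanoma against control had 0 members past the threshold where 0.646% of all genes were called (0.185% lower and 0.461% higher), with a member median of -0.18 and an all-gene median of 0.10. At an unadjusted p under 0.05 there were 14 members, 12 of them lower. The share of all genes at that level is not given here, so this count is not read as an excess. The largest decreases were -0.63 ± 0.23 for Cox7a1 (adjusted p = 0.193), -0.62 ± 0.20 for Cyc1 (adjusted p = 0.145) and -0.50 ± 0.15 for Uqcrc2 (adjusted p = 0.126). In 7 members every melanoma library was below every control, against 2.89% of all genes, and in 2, Cox6a2 and Atp5g2, every one was above, against 5.33%.

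Melanoma plus lisinopril against lisinopril also had 0 members past the threshold, where 1.48% of all genes were called (0.143% lower and 1.34% higher), and a member median of -0.23 beside an all-gene median of 0.23. At an unadjusted p under 0.05 there were 11 members, 10 of them lower. For this count, too, no share of all genes is given and no excess is read. Cox7a1 had an estimate of -0.67 ± 0.25 (adjusted p = 0.151), Atp5g3 of -0.41 ± 0.17 (adjusted p = 0.170) and Cox6a2 of 0.49 ± 0.20 (adjusted p = 0.179). In 17 members every library with melanoma plus lisinopril was below every lisinopril library, against 4.41% of all genes, and in 2, again Cox6a2 and Atp5g2, every one was above, against 29%. Without control 2 and melanoma 2, 6 members were called in this arm and 0 in the other, and the share of all genes called there is not given. Both libraries belong to the arm without lisinopril, so the TPM estimates of the lisinopril arm stayed the same. Only the spread shared by the groups and the set of genes tested changed, so the 6 calls are not read as particular to the drug.

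**Figure D5:**
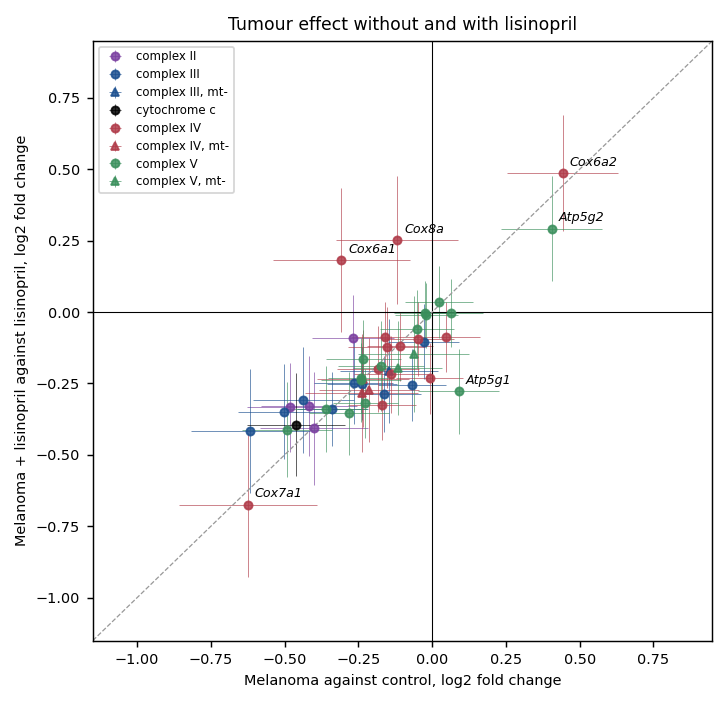
Tumour effect of the 48 members without lisinopril (x axis, melanoma against control) and with it (y axis, melanoma plus lisinopril against lisinopril), as log2 fold changes, with 1 point per gene and the dashed line marking equal values. Cox7a1 is at -0.63 and -0.67, and Cox6a2 at 0.44 and 0.49.

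The difference between the arms, the interaction of tumour and drug, was called for 0 members and 0% of all genes (limma; 151 genes and 0 members at an unadjusted p under 0.05), with member estimates from -0.37 ± 0.20 for Atp5g1 to 0.49 ± 0.34 for Cox6a1. The drug itself gave 0 called members and 0% of all genes in each of its comparisons. In tumour-bearing mice the estimates ran from -0.16 for Atp5g2 to 0.19 ± 0.14 for Sdha, with 189 genes and 0 members at an unadjusted p under 0.05. In tumour-free mice they ran from -0.49 ± 0.25 for Cox6a1 (adjusted p = 0.714) to 0.22 ± 0.15 for Atp5g1, with 461 genes and 0 members at that level. Averaged over both, they ran from -0.26 for Cox8a to 0.19 ± 0.17 for Cox7a1, with 631 genes and 0 members at that level. With 3 or 4 mice a group, these intervals do not show that the drug left the members unaltered.

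The other genes of the chain and of its assembly are given for the same average tumour effect. Of 36 nuclear genes of complex I, which feeds electrons from NADH into the chain, 8 fell, and the median of the 36 was -0.17. On TPM without mitochondrial transcripts 18 fell (median -0.31). Without control 2 and melanoma 2, 15 fell and 1 rose on TPM, and 24 fell and 0 rose without mitochondrial transcripts. The largest decreases were in Ndufs1 (-0.54, adjusted p = 0.0226) and Ndufs8 (-0.45, adjusted p = 0.0115), which carry iron-sulphur clusters, in Ndufc2 (-0.43, adjusted p = 0.0175), and in Ndufab1 (-0.40, adjusted p = 0.0209), the mitochondrial acyl carrier protein. Of the 7 mitochondrial genes of complex I none passed, with a median of -0.18.

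Of 34 assembly factors tested 9 fell and 0 rose, with a median of -0.22. On TPM without mitochondrial transcripts 14 fell (median -0.36), and without control 2 and melanoma 2 the counts were 13 and 22. Taco1, which promotes translation of the mt-Co1 transcript, had the largest change among them, at -0.84 (adjusted p = 0.00321), from 50.1 ± 9.60 TPM in controls (SD, n = 4) and 48.5 ± 1.86 TPM in the lisinopril group (n = 3) to 27.4 ± 6.55 TPM in the melanoma group (n = 4) and 27.3 ± 5.05 TPM in mice with both (n = 4). Bcs1l, which inserts the Rieske protein Uqcrfs1 into complex III, fell by 0.61 (adjusted p = 0.0279), Sdhaf4, an assembly factor of complex II, by 0.59 (adjusted p = 0.0240), and Cmc2, of complex IV, by 0.54 (adjusted p = 0.0147). Of 18 genes for expression of the mitochondrial genome 3 fell and 0 rose, with a median of 0.013 that turned to -0.11 without mitochondrial transcripts, where 3 fell as well. The genes that fell on TPM were Tfb1m (-0.42, adjusted p = 0.0297), Tefm (-0.31, adjusted p = 0.0291) and Tfam (-0.29, adjusted p = 0.0478), which act on mitochondrial ribosomal RNA, transcription elongation and packaging of mitochondrial DNA. Of 7 further subunits tested 1 fell, Usmg5 of the ATP synthase (-0.26, adjusted p = 0.0452).

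Markers of fibre type and other cells are given beside these changes, and their part in the members' changes was not tested. The summed level of 6 slow or oxidative fibre markers was 418 to 723 TPM in controls, 114 to 542 TPM with lisinopril, 138 to 477 TPM with melanoma and 249.3 to 787 TPM with melanoma plus lisinopril, with none of them at 0 in every library. Most of this sum was Myh2 in every library (79.6 to 580 TPM), while Myh7 ranged from 0.042 to 59.3 TPM. The 4 fast fibre markers summed to 17344 to 37108 TPM in tumour-free and 20457 to 38564 TPM in tumour-bearing muscle. None of these 10 genes passed, and they did not share a direction. In the fast list the estimates were 0.62 for the myosin Myh4, 0.38 for Myh1, 0.50 for Actn3 and -0.86 for the calcium buffer Pvalb, and in the slow or oxidative list they ran from -0.51 for Myh2 to 1.42 for Myh7. Pvalb stood at 554 TPM in melanoma 2 and at 5159 TPM or more in every other library. Of the 6 general fibre markers 1 passed on TPM, the calcium pump Atp2a1 (0.57, adjusted p = 0.0307), which did not pass without mitochondrial transcripts (0.44, adjusted p = 0.0631), and Mylpf and Acta1 had estimates of -0.37 and -0.27. The slow myosin Myh7 reached 59.3 TPM in melanoma plus lisinopril 4, the library in which the mitochondrial members were lowest, and 1.47 TPM at most in tumour-free muscle. Among 4 endothelial markers Kdr fell by 0.85 (adjusted p = 0.00674), while Pecam1, Tie1 and Cdh5 had estimates of 0.64, 0.39 and 0.11 that did not pass; the 4 summed to 68.2 to 153 TPM without and 88.1 to 138 TPM with a tumour. Among 4 fibroblast markers Dcn (0.87, adjusted p = 0.0087) and Pdgfra (0.67, adjusted p = 0.0486) rose on TPM, Pdgfra did not pass without mitochondrial transcripts (adjusted p = 0.0751), and Col1a1 and Dpt had estimates of -0.96 and -0.13; their sums were 131 to 569 and 319.5 to 558 TPM. Among 4 macrophage markers Cd163 rose by 1.92 (adjusted p = 9.85e-04), while Cd68, Csf1r and Adgre1 had estimates of 0.61, 0.58 and -0.09, with sums of 5.31 to 37.7 and 13.7 to 93.2 TPM. The sum of 93.2 TPM was that of melanoma 2, where Cd68 stood at 75.9 TPM, and no other tumour-bearing library exceeded 43.1 TPM. Of the B cell markers Ighm fell by 3.58 (adjusted p = 5.97e-04), Igkc and Cd79b had estimates of -2.13 and -0.36, and Cd79a was under the filter, with sums of 33.8 to 229 and 2.59 to 21.3 TPM. Igkc did not pass on TPM (limma adjusted p = 0.0516) but fell without mitochondrial transcripts (-2.45, adjusted p = 0.0455).

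The number of calls changed with single libraries. Without lisinopril 2 none of the 48 members passed (limma), and without lisinopril 1 only Sdhb did. Without control 1, control 3 or control 4, 5 members were called each time, and they were Sdhb, Uqcrc2, Uqcrfs1, Cox7a1 and Atp5g3; without lisinopril 3 the same 5 and Cycs passed. Without melanoma plus lisinopril 4 there were 6 calls. The share of all genes called with a library left out is not given, so these counts cannot be set against other genes. None of the 12 changed direction under any of the 23 alternatives run.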

How the data were processed

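Libraries from 15 muscles were made with a stranded poly(A) kit (TruSeq) and sequenced on a NovaSeq instrument, per the labels. The authors deposited TPM for 47643 symbols; the build was mm10, per the submitters' processing notes. Which aligner, counting program and annotation they used is not given in the sources used here. All deposited TPM columns sum to 1000000, so read depth is unknown and no counting interval is given. The labels call the samples biological replicates.

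Groups follow the labelled treatments. Genes with at least 1 TPM in at least 3 of 15 libraries (11923 of 21659 above 0) were fitted as log2(TPM + 1) in R 4.3.3 by limma 3.58.1, using 4 group means and a mean-variance trend (11 residual and 3.80 prior degrees of freedom), and p-values were adjusted by Benjamini-Hochberg over all of them. Fold changes are on the log2(TPM + 1) scale. The average tumour effect is the mean of the tumour effects in both drug arms. The fit was tested on simulated data. TPM was also rescaled without mt- genes (12865 kept) and by median ratios. Other alternatives were pseudocount 0.1, no filter, a mean of at least 5 TPM, a replicate block and leaving out each library. Positions are from GENCODE M21 (GRCm38) and promoters from RefSeq (GRCm38.p6). The members, gene lists and tests were chosen with earlier results of these data known. All members could be named; from each other list, up to 4 called genes with the largest change were. The result of 1 gene outside the members is not reported here.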

Additional observations from a re-analysis of the deposited data

Results flagged for a closer look

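In 24 of 159 sets of 4 libraries (a member or ratio within a group) the highest or lowest library stood far from the other 3 by Dixon's criterion. For independent sets chance gives about 1 in 20, or 7.95. The sets are not independent, because all members were read in the same libraries and the ratios use the same genes. The 24 is therefore not read as an excess. Melanoma replicate 2 was low for Sdhc (108 TPM), Uqcrh (424 TPM), Cycs (83.5 TPM), Cox7a1 (317 TPM), Atp5j (136 TPM) and the Cox7a1 to Cox7a2 ratio (0.768). Control replicate 2 was low for Sdhc (156 TPM), Sdhd (419 TPM), Uqcr10 (707 TPM) and Cyc1 (698 TPM). Melanoma plus lisinopril replicate 4 was low for Sdhc (126 TPM), Atp5j (172 TPM), mt-Co2 (38246 TPM), mt-Co3 (42107 TPM) and the Cox7a1 to Cox7a2 ratio (1.01), and high for the Atp5g2 to Atp5g3 ratio (1.14). Control replicate 3 was high for Sdhb (504 TPM), mt-Co1 (98390.4 TPM), mt-Co2 (67806 TPM) and mt-Atp8 (31215 TPM) and low for Atp5g2 (254 TPM). Of the other groups' libraries, melanoma 4 was low for Atp5d (239 TPM), melanoma plus lisinopril 2 for Cox8b (1049 TPM) and melanoma 3 for the Cox6a2 to Cox6a1 ratio (29.1). The lisinopril group, with 3 libraries, was not examined in this way.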

How the results depend on the processing

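The average tumour effect called 12 members as reported. It called 20 on TPM without mt- genes, 23 after median-ratio rescaling, and 23 without mt- genes and without control 2 and melanoma 2. Leaving out 1 library gave 0 to 17, and the remaining settings together gave 8 to 23. Melanoma against control gave 0 to 1 and melanoma plus lisinopril against lisinopril 0 to 1 when 1 library was left out. The second comparison gave 6 without control 2 and melanoma 2, which are libraries of the other arm, and 6 when mt- genes were left out as well. Shares of all genes called are not given for the settings with 1 library left out, for the lowest count of 8, or for these counts of 6. Leaving out 1 library moved the Cox6a2 to Cox6a1 log2 ratio between 0.39 and 0.62 and the Cox7a1 to Cox7a2 log2 ratio between -0.54 and -0.32. Signs turned in members that were not called: without mt- genes Cox8a was -0.066, Atp5c1 -0.10 and Atp5l -0.10; after median-ratio rescaling they were -0.14, -0.18 and -0.18; without control 2 and melanoma 2 Cox6a1 was 0.047; and in the combined setting Cox8a was -0.068, Atp5c1 -0.11 and Atp5l -0.12. Leaving out 1 library took Cox6a1 between -0.15 and 0.063, Cox7b between -0.040 and 0.014, Atp5b between -0.035 and 0.0043, Atp5l between -0.0024 and 0.060 and Atp5o between -0.034 and 0.0086. The cause of these shifts was not tested. Of 276 values of called members under the alternatives, 197 stayed past the threshold, 79 did not and 0 turned sign. The sample labels link samples with the same replicate number by that number alone. Of 21 such pairs 9 had a correlation of deviations over 0.1 (median 0.083), against 16 of 63 pairs with different numbers (median -0.035). Whether the number marks a shared batch was not tested. With a replicate block the average tumour effect called 9 members, and the share of all genes called there is not given. Depth is unknown, and groups of 3 or 4 mice limit precision.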

Other observations

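The ratio of Cox7a1 to Cox6a2, a pair chosen after its values were seen and therefore not tested, separated the libraries: it was 0.557 to 0.812 (median 0.714) in the 7 tumour-free and 0.134 to 0.467 (median 0.359) in the 8 tumour-bearing libraries. Both genes encode muscle forms of complex IV subunits.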
